A study of Arabidopsis thaliana with 12 samples.

Results

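The genotype by sulfide interaction was the change in the difference between des1 and wild type leaves when plants were watered with sodium sulfide (Na2S) in place of water. It was computed for each probe set of the Affymetrix ATH1 array as des1 minus wild type under Na2S, minus des1 minus wild type under water. All 12 of the 12 arrays of the series entered it, taken by their titles as 3 arrays in each of 4 groups. A value above 0 says that des1 stood higher, relative to wild type, under Na2S than under water. The same number is also the Na2S effect in des1 minus the Na2S effect in wild type.

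Plants were Arabidopsis thaliana, either the Col-0 accession (wild type) or des1-1, a T-DNA insertion line (SALK_103855) in that background. They grew in soil for 20 days and were then irrigated for a further 10 days with water or with Na2S, which the labels give as 200 mM, so that leaves came from plants of 30 days in every group. That concentration is very high for watering, and whether its unit is as meant could not be checked here. Water-fed plants are called untreated and Na2S-fed plants treated. The des1 plants were 1 insertion line, with no other allele and no complemented line among the 12 arrays. The controls received water alone, so sulfide cannot be told apart from sodium or any other property of the Na2S solution. The transcript of DES1 is not analysed here, because no probe set was paired with it in the annotation used. The design text calls the 3 replicates of a group biological, but the labels give no harvest hour, array batch or scan date, so time of day cannot be told apart from group.

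DES1 is a cytosolic enzyme that degrades L-cysteine to sulfide, ammonia and pyruvate. Sulfide is both an intermediate of sulfur assimilation and a small signalling molecule in plants, and leaves that lack DES1 are known for early senescence and for raised autophagy. An interaction shows genes for which the difference between the des1 line and wild type depended on whether plants received water or the Na2S solution.

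The arrays were alike in scale, with medians from 5.71 to 5.80 and lower quartiles from 3.69 to 3.90 on the log2 scale, and arrays within a group correlated at 0.9929 to 0.9975. No detection calls were used, so values near or below the lower quartile are called dim, and a difference that ends there is compressed. Among control probe sets of the same arrays, 25S rRNA had an interaction of 1.22 ± 0.33 (limma SE), with group means of 12.51 in untreated wild type, 11.42 in untreated des1, 12.25 in treated wild type and 12.38 in treated des1. The ubiquitin control had -0.65 ± 0.13 at its 3′ end and -1.16 ± 0.17 at its 5′ end, while actin stood at -0.03 ± 0.15 (3′) and 0.11 ± 0.21 (5′). The ubiquitin 3′ minus 5′ difference, which depends on RNA integrity and labelling, was 1.76 to 1.81 in untreated wild type, 1.19 to 1.4 in untreated des1, 1.35 to 1.61 in treated wild type and 1.49 to 1.56 in treated des1. Untreated wild type lay apart from the other groups in this difference, but not in those of the other controls. For GAPDH it was 1.18 to 1.68, 0.81 to 1.4, 0.9 to 1.09 and 1.27 to 1.38 in the same order of groups, and for actin 3.26 to 3.52, 3.33 to 3.56, 2.84 to 3.4 and 2.72 to 3.33. The part of these differences in the results was not tested. In leaf tissue, fewer cells of a type and less RNA per cell cannot be told apart. Of 8 fixed mesophyll markers only Rubisco activase RCA was measured. Its unlogged level was 18306 to 19619 in untreated wild type, 23494 to 23988 in untreated des1, 20595 to 21921 in treated wild type and 21174 to 22694 in treated des1, so that the untreated genotypes did not overlap (difference 0.32 on the log2 scale, adjusted p = 0.006). The 2 measured root markers of 12 fixed summed to only 31 to 44 intensity units.

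For a large share of the transcriptome the genotype difference depended on the watering. The interaction passed the limma test (Benjamini-Hochberg adjusted p under 0.05) for 8573 of 22746 probe sets, a share of 37.7%, with 4232 above 0 (18.6%) and 4341 below 0 (19.1%). It spanned -6.33 to 6.48 on the log2 scale with a median of -0.02 over all probe sets. At least 1 on the log2 scale was reached by 3426 of these calls (15.1% of those tested), and at least 4 by 76. For 7487 calls (32.9% of those tested) the 9 differences between single des1 and wild type arrays under Na2S did not overlap the 9 under water. The simple contrasts that make up the interaction called 10166 probe sets (44.7%) between the genotypes under water and 318 (1.4%) under Na2S. They called 6919 (30.4%) for the Na2S effect in wild type and 8443 (37.1%) for that in des1. These contrasts share arrays with the interaction and with each other, so their counts describe where an interaction lies and are no independent evidence of it.

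The calls were mostly differences present under water that were smaller under Na2S. Among the 4232 calls above 0 the median des1 minus wild type difference was -0.78 under water and 0.09 under Na2S, and among the 4341 calls below 0 it was 0.78 under water and -0.10 under Na2S. Of the 8573 calls, 7938 (92.6%) had a genotype difference that passed under water only. A further 182 (2.12%) had differences that passed in opposite directions, 53 (0.618%) passed in the same direction under both waterings, 34 (0.397%) passed under Na2S only and 366 (4.27%) under neither. Single treated arrays moved the smaller counts by over 1.5 times. The count with opposite directions was 109 and 97 without treated wild type replicate 1 and 2, and 98, 107 and 104 without treated des1 replicate 1, 2 and 3. The count with the same direction was 33 without treated wild type replicate 2, and 35 without treated des1 replicate 1 and again without replicate 3. Weighting the arrays by their quality moved them the other way, to 507 in opposite directions, 128 in the same direction and 104 under Na2S only. In 5908 calls (68.9%) the measured difference under Na2S was less than 0.25 of that under water, and in 317 (3.7%) it was larger.

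**Figure D1:**
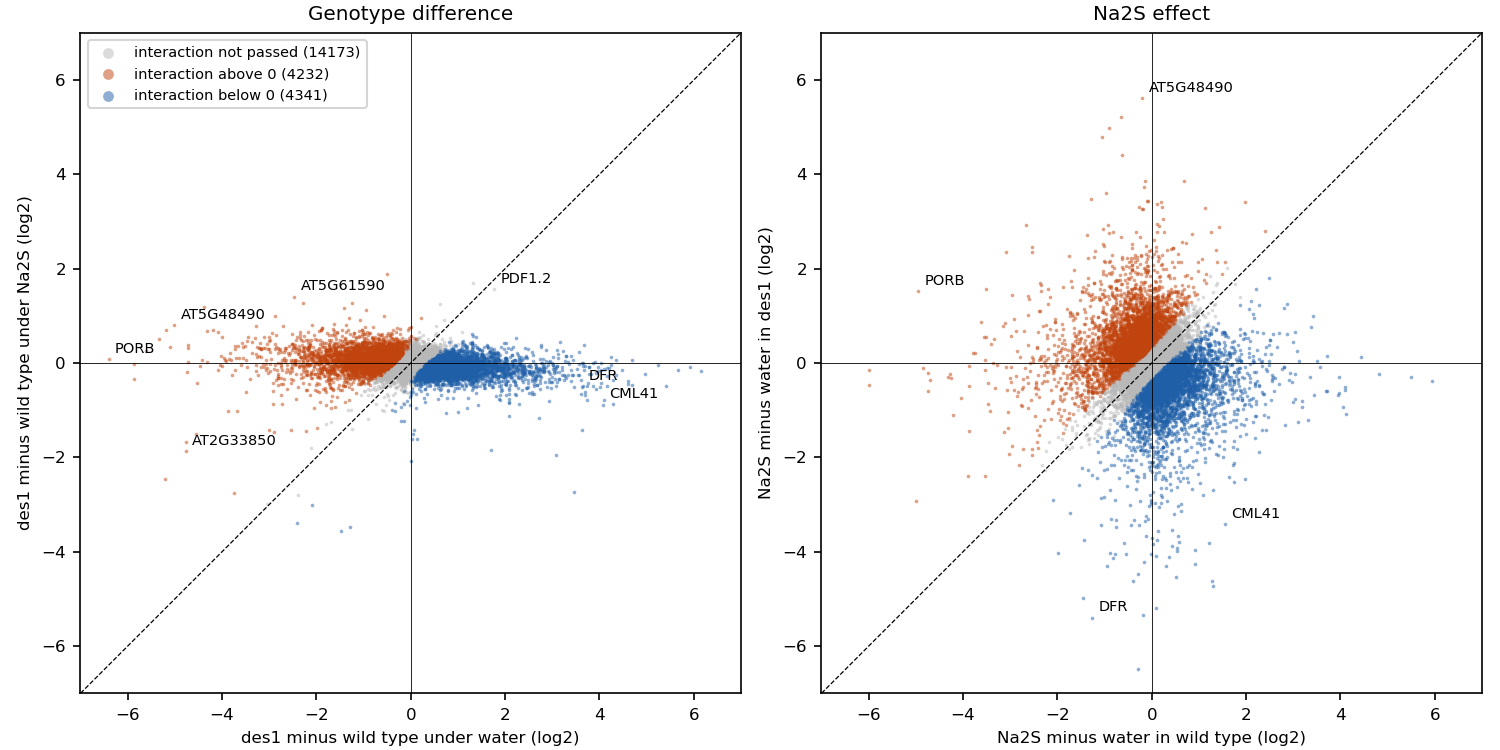
Each point is 1 of 22746 probe sets, placed on the left by des1 minus wild type under water (horizontal, log2) and under Na2S (vertical, log2), and on the right by Na2S minus water in wild type and in des1. Orange points passed the interaction test above 0 (4232) and blue points below 0 (4341), grey points did not pass, and on the dashed line the interaction is 0. On the left the coloured points spread along the horizontal axis and mostly stay close to 0 on the vertical one, with PDF1.2 near the dashed line.

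Both genotypes moved with Na2S, often towards each other. Na2S changed 3209 of the calls (37.4%) in des1 only and 2052 (23.9%) in wild type only, judged by which simple contrast passed. In 2229 (26%) it changed both in opposite directions, with wild type up and des1 down in 1167 and wild type down and des1 up in 1062. In 660 (7.7%) both changed in the same direction by different amounts. Both treated means lay between the untreated means in 4886 calls (57%). In 1188 calls untreated des1 stood above the other 3 groups, which did not differ among themselves by the test, and in 1021 it stood below them. Untreated wild type stood apart in the same sense above in 747 calls and below in 734. A treated group stood apart far less often: treated wild type above in 17 and below in 2, and treated des1 above in 5 and below in 2.

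**Figure D2:**
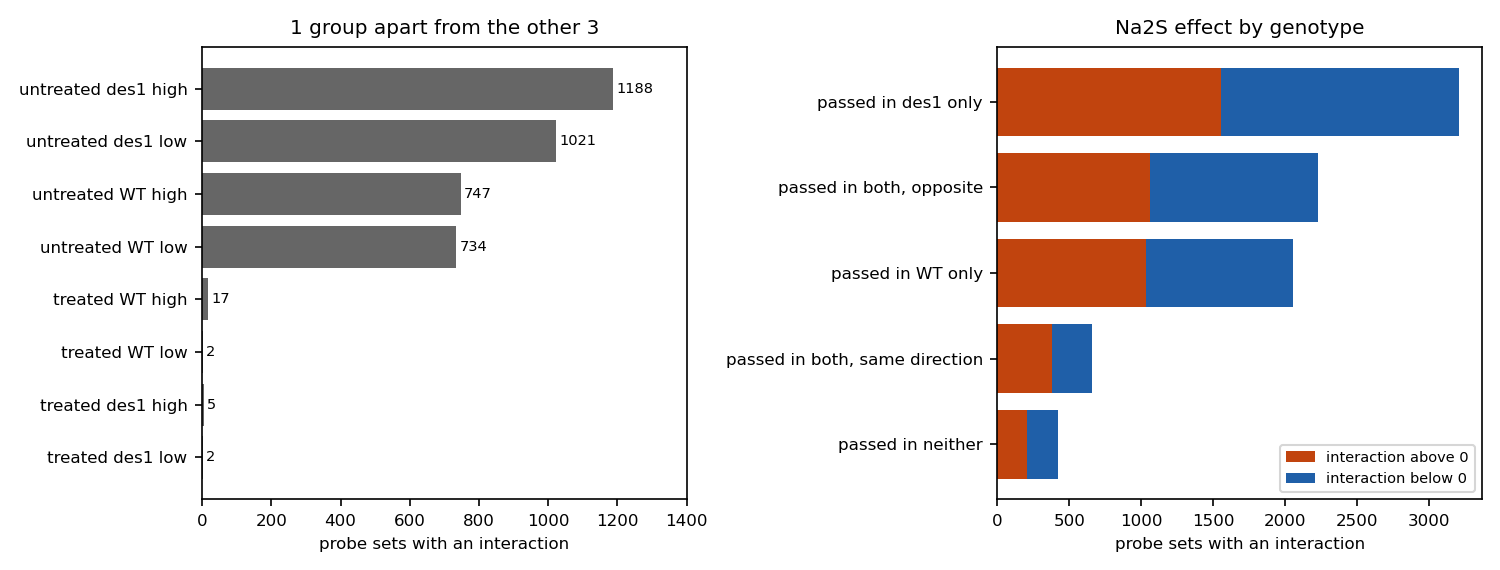
Bars count probe sets that passed the interaction test, on the left those in which 1 group differed from the other 3 while these did not differ from each other, and on the right those sorted by which Na2S effect passed, split into interactions above 0 (orange) and below 0 (blue). Untreated des1 (1188 and 1021) and untreated wild type (747 and 734) carry the left plot, and the treated groups hold 17 at most.

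The largest interaction above 0 belonged to PORB, the gene of a light-dependent protochlorophyllide oxidoreductase of chlorophyll synthesis. The values of PORB were 12.44, 12.71 and 12.5 in untreated wild type, 6.02, 6.18 and 6.25 in untreated des1, 7.61, 7.64 and 7.55 in treated wild type, and 7.67, 7.73 and 7.63 in treated des1. Untreated wild type stood far above the other 3 groups, untreated des1 was the lowest, and the treated genotypes lay between them and overlapped. The interaction was 6.48 ± 0.14 (SE, 3 arrays per group, limma adjusted p = 6.6e-15), made of a difference of -6.4 under water and 0.08 under Na2S. Next came AT4G29020, which has no described product in the annotation used. On the log2 scale AT4G29020 stood at 11.14, 11.14 and 11.08 in untreated wild type, 5.85, 6.44 and 5.53 in untreated des1, 10.2, 10.28 and 10.19 in treated wild type, and 10.72, 11.05 and 10.99 in treated des1. Here only untreated des1 was low, and both treated groups were bright. Its interaction was 5.88 ± 0.23 (adjusted p = 1.7e-12). AT1G56300, likewise undescribed, had another form. The arrays gave AT1G56300 values of 9.32, 9.5 and 9.5 in untreated wild type, 3.51, 3.65 and 3.55 in untreated des1, 3.5, 3.52 and 3.32 in treated wild type, and 3.46, 3.4 and 3.42 in treated des1. It was bright in untreated wild type alone, and the other 3 groups were dim, so its interaction of 5.85 ± 0.14 (adjusted p = 7.26e-15) came from a difference that could be read under water only.

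Those 2 forms, low in untreated des1 alone or high in untreated wild type alone, recurred among the other 9 of the 12 largest interactions above 0. AT5G48490 was low only in untreated des1. AT5G48490 was measured at 10.67, 10.54 and 10.77 in untreated wild type, 5.61, 5.48 and 5.85 in untreated des1, 10.45, 10.45 and 10.47 in treated wild type, and 11.35, 11.26 and 11.18 in treated des1. Its interaction was 5.82 ± 0.15 and des1 stood above wild type under Na2S by 0.81. AT5G45670 (5.03 ± 0.17) and AT4G28780 (4.56 ± 0.2) had the same form, with means of 3.29 and 4.43 in untreated des1 against 7.38 to 8.01 and 7.47 to 8.43 in the other groups. High in untreated wild type alone were AT5G62360 (4.74 ± 0.2), AT4G30660 (4.53 ± 0.19), AT2G39920 (4.33 ± 0.23) and AT3G47160 (4.16 ± 0.2). AT4G30660, for example, averaged 10.72 in untreated wild type and 5.78 to 5.99 elsewhere. AT2G39920 was dim outside untreated wild type, at means of 3.15 to 3.52. The other 2 were graded. BZIP61, a bZIP transcription factor, averaged 8.5 and 4.18 in untreated wild type and des1, and 5.96 and 6.63 after Na2S, an interaction of 5.0 ± 0.23. The actin-binding LIM protein gene WLIM2a averaged 9.3, 4.83, 6.34 and 6.28 in the same order of groups (4.41 ± 0.15). In each of these 9 genes the adjusted p was at most 5.89e-11.

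Genes of chlorophyll synthesis lay on the positive side. Gene lists are read here against all 13286 genes with a probe set used, of which 2279 (17.2%) passed above 0 and 2242 (16.9%) below 0, with a median interaction of -0.01. Of 21 fixed chlorophyll synthesis genes 6 were measured, 5 passed above 0, 0 below and 1 did not pass, with a median of 1.09. Beside PORB they were HEME2, a uroporphyrinogen decarboxylase, GSA1, the aminomutase that makes aminolevulinic acid, HEMB1, an aminolevulinic acid dehydratase, and CHLM, a magnesium protoporphyrin methyltransferase. For HEME2 the log2 values were 11.17, 11.12 and 11.17 in untreated wild type, 9.17, 9.13 and 9.24 in untreated des1, 10.25, 10.13 and 9.98 in treated wild type, and 10.37, 10.35 and 10.38 in treated des1. The 4 groups did not overlap, and untreated wild type was the highest and untreated des1 the lowest, while the difference between the treated genotypes (0.25) did not pass (adjusted p = 0.307). The interaction of HEME2 was 2.22 ± 0.14 (adjusted p = 4.52e-10). GSA1 (1.17 ± 0.17), HEMB1 (1.0 ± 0.15) and CHLM (0.61 ± 0.14) followed with smaller values, each lowest in untreated des1. Nuclear photosynthesis genes did not lean the same way. Of 10 measured among 50 fixed, 3 passed above 0, 2 below and 5 did not pass, with a median of 0.15. The antenna protein gene LHCB4.1 (0.6 ± 0.14) and the photosystem I subunit gene PSAN (0.57 ± 0.15) were above 0, whereas PRK (-0.61 ± 0.17) and SBPASE (-0.5 ± 0.14), enzymes of the Calvin cycle, were below. RCA had -0.27 ± 0.13 and did not pass (adjusted p = 0.104). Of 69 plastid-encoded genes 9 passed above 0 and 2 below, a share of 13% and 2.9%, with a median of 0.27. Among them psbB, a core antenna subunit of photosystem II, had 1.26 ± 0.25 and psaA, a photosystem I core subunit, 0.96 ± 0.2, while psbI (-1.83 ± 0.41) and psbK (-1.36 ± 0.33), small subunits of photosystem II, were below 0. Unlike for psbB and psaA, the 9 array differences of psbI and of psbK under Na2S overlapped the 9 under water. In untreated des1 psbI read 9.18, 10.51 and 10.68, and untreated wild type reached 9.31. The array method primes labelling from poly(A) tails, which plastid transcripts mostly lack.

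Genes that loosen the cell wall formed a larger positive group. Expansins and xyloglucan endotransglucosylase/hydrolases (XTH) allow walls to extend during cell growth. Of 28 fixed, 10 were measured, 8 passed above 0, 0 below and 2 did not pass, with a median of 1.15. XTH16 had values of 7.28, 7.17 and 7.39 in untreated wild type, 3.84, 4.19 and 4.22 in untreated des1, 7.22, 7.19 and 7.22 in treated wild type, and 7.66, 7.32 and 7.6 in treated des1. XTH16 was low in untreated des1, close to the dim range, and the other 3 groups lay within 0.49 of each other. Its interaction was 3.51 ± 0.17 (adjusted p = 2.36e-11). By array, EXPA8 read 10.9, 11.08 and 10.93 in untreated wild type, 7.91, 7.62 and 7.83 in untreated des1, 8.67, 8.72 and 8.59 in treated wild type, and 8.63, 8.36 and 8.72 in treated des1. For the alpha-expansin gene EXPA8, untreated wild type was the highest, untreated des1 the lowest, and the treated genotypes overlapped, an interaction of 3.09 ± 0.16. The expansin-like genes EXLA2 (1.77 ± 0.18) and EXLA1 (1.68 ± 0.14) were above 0 too, and EXLA1 was lower in des1 under water (-1.24) and higher under Na2S (0.44). By symbol, 27 expansin and XTH genes were measured, of which 13 passed above 0 and 1 below, with a median of 0.41. The beta-expansin gene EXPB1 had 3.07 ± 0.15, with 4.17 in untreated des1 and 6.96 to 7.47 elsewhere. The exception was XTH19, at -2.85 ± 0.24, whose mean was 4.79 in untreated wild type and 6.21 to 6.99 in the other groups. Among 15 GH9 endoglucanase genes, of a family that trims cellulose, 5 passed above 0 (33.3%) and 0 below. The largest were GH9C2 (1.82 ± 0.18) and GH9B8 (1.81 ± 0.21), followed by GH9B7 (1.28 ± 0.14) and GH9B13 (0.9 ± 0.18). The TBL genes of wall acetylation fell on both sides, with 6 above (27.3%) and 5 below 0 (22.7%) of 22 measured. Over all genes the shares were 17.2% and 16.9%. The TBL values ran from TBL45 at 2.82 ± 0.17 to TBL26 at -3.47 ± 0.15.

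Tubulins, the building blocks of microtubules, followed the wall genes. Of 7 measured, 6 passed above 0 and 1 below, with a median of 1.49. TUB1 read 6.94, 6.96 and 6.55 in untreated wild type, 3.33, 3.72 and 3.82 in untreated des1, 5.15, 5.29 and 5.06 in treated wild type, and 5.62, 5.37 and 5.79 in treated des1. Untreated des1 was in the dim range for TUB1, untreated wild type was the highest, and in treated plants des1 lay above wild type without overlap, a difference of 0.43 that did not pass (adjusted p = 0.223). The interaction of TUB1 was 3.62 ± 0.21 (adjusted p = 1.9e-10). TUB5 had 3.39 ± 0.14, with 10.73 in untreated wild type, 7.46 in untreated des1, and 8.01 and 8.14 in treated wild type and des1. TUA6 (1.69 ± 0.15) and TUB7 (1.49 ± 0.14) were lower values of the same sign. TUA1, at -1.08 ± 0.14, was the member below 0, with 8.2 in untreated wild type and 9.18 to 9.37 in the other groups. The auxin-inducible repressor gene IAA29 also stood above 0 (2.14 ± 0.2), being high in untreated wild type alone (6.83 against 4.5 to 4.61). It was 1 of 4 measured of 22 fixed auxin and growth genes, and the other 3 did not pass. By symbol, 3 of 11 IAA and GH3 genes passed above 0 (27.3%, against 17.2% over all genes) and 0 below. Among them were GH3.9 (1.6 ± 0.29) and GH3.17 (0.63 ± 0.18), of a family that conjugates amino acids to auxin and other acids. GH3.17 lay near the dim range, at group means of 3.57 to 4.16.

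Markers of dividing cells had the same sign. Of 29 fixed, 7 were measured, 6 passed above 0, 0 below and 1 (AUR3, 0.47 ± 0.19, adjusted p = 0.0605) did not pass, with a median of 0.97. The values of PRL were 7.22, 7.32 and 7.24 in untreated wild type, 5.1, 5.15 and 5.21 in untreated des1, 6.45, 6.01 and 6.39 in treated wild type, and 6.18, 5.99 and 6.06 in treated des1. For PRL, which encodes the replication helicase subunit MCM7, untreated wild type was the highest and untreated des1 the lowest, and the treated genotypes overlapped. Its interaction was 1.9 ± 0.16 (adjusted p = 3.27e-08). The mitotic Aurora kinase genes AUR1 (1.55 ± 0.2) and AUR2 (0.97 ± 0.22) and the listed gene AT2G36200 (1.18 ± 0.17) passed too. Summed over the 7 markers, the unlogged level was 462 to 523 in untreated wild type, 156 to 178 in untreated des1, 304 to 333 in treated wild type and 266 to 276 in treated des1. The sums of the 4 groups did not overlap. AUR3 lay near the dim range on all arrays, at 3.28 to 4.2, and AT2G36200 in untreated des1, at 3.9 to 4.22. Untreated des1 was also the lowest group for the wall, tubulin and chlorophyll genes named above, XTH19, TBL26 and TUA1 excepted, and the part of dividing cells in their values was not tested. Of 7 measured histone genes, 4 passed above 0 (57.1%) and 1 below (14.3%), with the centromeric histone HTR12 (1.08 ± 0.16) and the H2B genes HTB2 (0.82 ± 0.16) and HTB11 (0.56 ± 0.15) above. HTR12 was dim in untreated des1, at a mean of 3.75. The member below 0 was HIS1-3, a drought-inducible linker histone described with the negative side. Of 3 measured stomatal lineage genes of 14 fixed, MUTE (0.71 ± 0.15) and FMA (0.53 ± 0.16), regulators of guard cell formation, passed above 0, and SPCH had 0.38 ± 0.22 without passing (adjusted p = 0.206). The values of MUTE lay near the dim range, at 3.38 to 4.09 on all arrays.

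**Figure D3:**
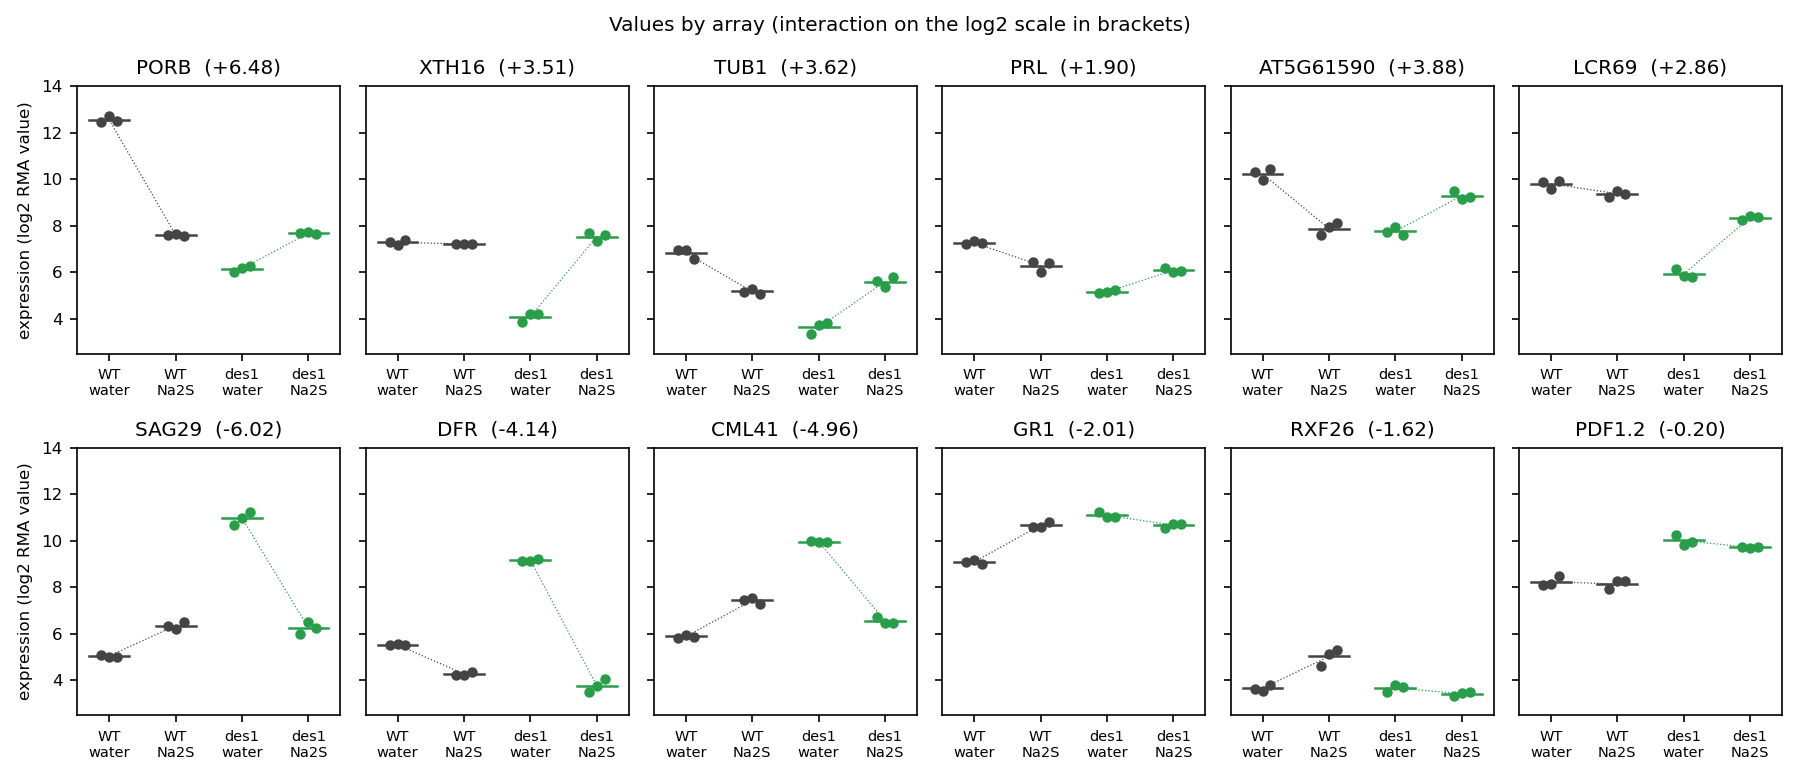
Points are the 12 arrays (log2 RMA value, vertical) of 12 genes in 4 groups, wild type in grey and des1 in green, with short lines for group means and dotted lines joining water to Na2S within a genotype. In the upper row, with interactions above 0, untreated des1 is low and untreated wild type is the highest or among the highest. In the lower row SAG29, DFR and CML41 are high in untreated des1, GR1 is low in untreated wild type, RXF26 is high in treated wild type only, and PDF1.2 has 2 nearly parallel lines.

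On the negative side the largest interaction was that of AT2G27420, which has no described product in the annotation used. On the log2 scale AT2G27420 stood at 4.24, 4.28 and 3.9 in untreated wild type, 10.35, 10.12 and 10.4 in untreated des1, 10.17, 10.02 and 10.07 in treated wild type, and 9.77, 10.02 and 9.94 in treated des1. It lay near the dim range in untreated wild type, and the other 3 groups were bright. The interaction was -6.33 ± 0.17 (adjusted p = 1.78e-14). Next was SAG29, also named SWEET15, a sugar transporter gene associated with leaf senescence. The arrays gave SAG29 values of 5.1, 5.01 and 5.01 in untreated wild type, 10.67, 10.99 and 11.24 in untreated des1, 6.32, 6.21 and 6.5 in treated wild type, and 5.99, 6.5 and 6.26 in treated des1. Untreated des1 stood alone at the top, untreated wild type was the lowest and the treated genotypes overlapped between 5.99 and 6.5. Its interaction was -6.02 ± 0.2 (adjusted p = 3.08e-13), with wild type up (1.3) and des1 down (-4.72) with Na2S.

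Most of the other 10 largest interactions below 0 shared the form of SAG29, high in untreated des1. CML41 was measured at 5.83, 5.93 and 5.87 in untreated wild type, 9.98, 9.95 and 9.92 in untreated des1, 7.46, 7.52 and 7.29 in treated wild type, and 6.71, 6.45 and 6.46 in treated des1. CML41, a calmodulin-like calcium sensor gene, was highest in untreated des1, lowest in untreated wild type, and under Na2S lower in des1 than in wild type without overlap. Its interaction was -4.96 ± 0.14 (adjusted p = 5.45e-14). For HIS1-3 the log2 values were 3.69, 3.28 and 3.56 in untreated wild type, 7.15, 7.91 and 7.59 in untreated des1, 3.87, 3.55 and 3.4 in treated wild type, and 3.58, 3.34 and 3.43 in treated des1. The linker histone gene HIS1-3 was read only in untreated des1 and was dim on the other 9 arrays, an interaction of -4.2 ± 0.24. AT5G39520 (-5.17 ± 0.19), AT2G25625 (-4.88 ± 0.18), AT1G68620 (-4.45 ± 0.17) and AT1G64360 (-4.38 ± 0.17) were likewise high in untreated des1, at means of 10.35, 9.42 and 8.13 for the first 3. AT5G42760 (-4.31 ± 0.14) and AT3G28270 (-4.53 ± 0.14) were instead low in untreated wild type, at 6.31 and 8.02, against 9.91 to 10.51 and 10.82 to 12.04 in the other groups. The remaining 2, the putative chitinase gene CHI (AT2G43570) and AT4G23680 (-5.03 ± 0.18), had the largest differences of changed sign under Na2S and are described with such genes. The genotype difference also passed with changed sign under Na2S in CML41 (-0.88), AT2G25625 (-0.78), AT1G64360 (-0.68) and AT3G28270 (-0.51). The adjusted p of the interaction was at most 1.58e-10 in these 10 genes.

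All 7 measured flavonoid and anthocyanin genes, of 23 fixed, passed below 0, with a median of -2.60 against -0.01 for all genes. Their median genotype difference was 2.87 under water and -0.06 under Na2S. DFR had values of 5.5, 5.57 and 5.49 in untreated wild type, 9.12, 9.14 and 9.22 in untreated des1, 4.21, 4.21 and 4.37 in treated wild type, and 3.51, 3.73 and 4.05 in treated des1. DFR encodes dihydroflavonol 4-reductase, the entry to anthocyanins. Untreated des1 was the only bright group for DFR, and both treated groups fell below untreated wild type, with treated des1 the lowest and partly dim. Its interaction was -4.14 ± 0.17 (adjusted p = 2.63e-12). By array, AT4G14090 read 5.64, 5.95 and 5.32 in untreated wild type, 9.47, 9.37 and 9.41 in untreated des1, 5.49, 5.6 and 5.92 in treated wild type, and 5.39, 5.83 and 5.55 in treated des1. The listed gene AT4G14090 was high in untreated des1 only, and the other 9 arrays lay within 0.63 of each other, an interaction of -3.86 ± 0.21. UF3GT, a flavonoid glycosyltransferase gene, had -3.5 ± 0.27 in the same form. CHIL read 7.18, 7.07 and 7.47 in untreated wild type, 10.05, 10.11 and 10.18 in untreated des1, 10.68, 10.6 and 10.57 in treated wild type, and 10.98, 10.82 and 10.86 in treated des1. CHIL, a chalcone isomerase-like gene of the early pathway, took the other form: it was low in untreated wild type only, and Na2S raised it in both genotypes, by 3.38 in wild type and 0.77 in des1. The interaction of CHIL was -2.6 ± 0.15. UGT78D2, which glucosylates flavonols and anthocyanidins, resembled CHIL, with 7.75 in untreated wild type and 9.9 to 10.1 elsewhere (-2.4 ± 0.14). In the treated groups DFR, AT4G14090 and UF3GT were therefore low in both genotypes, and CHIL and UGT78D2 high in both.

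UDP-glycosyltransferase and cytochrome P450 genes had more calls below 0 than above, while most glutathione transferase genes did not pass. Of 48 UDP-glycosyltransferase genes 18 passed below 0 (37.5%) and 6 above (12.5%), with a median of -0.22. UGT87A2 (-2.77 ± 0.13) and UGT71B1 (-2.43 ± 0.16) were the largest after the anthocyanin gene UF3GT. UGT87A2 averaged 7.75 in untreated wild type, 10.18 in untreated des1, 9.17 in treated wild type and 8.83 in treated des1. Of 23 cytochrome P450 genes, 9 passed below 0 (39.1%) and 1 above (4.35%), with a median of -0.14. The calls below 0 were led by CYP78A9 (-1.67 ± 0.16) and CYP71B23 (-1.64 ± 0.23). CYP71B24 (-1.26 ± 0.22) and CYP71B36 (-1.25 ± 0.17) followed, and members of the CYP71B group are similar in sequence, so shared hybridisation cannot be told from shared change. Glutathione transferases counted 3 below (23.1%, against 16.9% over all genes) and 1 above 0 (7.69%) of 13. The other 9 did not pass, and the median was -0.08. The called genes were GSTU16 (-2.21 ± 0.15), GSTU23 (-1.07 ± 0.17), GSTL3 (-0.56 ± 0.14) and GSTF4 (1.67 ± 0.19).

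Genes of protein tagging leaned below 0 too, while most genes of a sugar transporter family did not pass. Of 21 U-box ligase and E2 conjugating enzyme genes, which attach ubiquitin to proteins, 11 passed below 0 (52.4%) and 3 above (14.3%), with a median of -0.69. The values of PUB19 were 5.08, 4.93 and 5.0 in untreated wild type, 8.72, 8.65 and 8.62 in untreated des1, 5.39, 5.49 and 5.53 in treated wild type, and 5.32, 5.6 and 5.47 in treated des1. The U-box ligase gene PUB19 was high in untreated des1 alone, and the treated genotypes overlapped. Its interaction was -3.67 ± 0.14 (adjusted p = 1.36e-12). UBC32, an E2 of the endoplasmic reticulum, had -2.0 ± 0.15, whereas UBC20 (1.87 ± 0.18) and UBC37 (1.56 ± 0.2) were above 0. UBC37 was dim outside untreated wild type, at means of 3.61 to 3.77. Of 14 genes named SWEET, a family of sugar transporters, 4 passed below 0 (28.6%), 1 above (7.14%) and 9 did not pass, not counting SAG29. Their median was 0.045, and the gene above 0 was SWEET16, a vacuolar member (1.64 ± 0.24). On the log2 scale SWEET13 stood at 5.09, 5.04 and 5.18 in untreated wild type, 7.91, 7.61 and 7.74 in untreated des1, 5.15, 5.07 and 5.16 in treated wild type, and 4.94, 5.12 and 5.01 in treated des1. SWEET13 was high in untreated des1 only, with the other 9 arrays between 4.94 and 5.18, an interaction of -2.75 ± 0.14. SWEET11, a sucrose exporter of the phloem parenchyma, had -1.53 ± 0.14 and SWEET2 -1.57 ± 0.15. SWEET2 averaged 7.93 in untreated wild type and 9.65 to 10.31 elsewhere, so that Na2S raised it in both genotypes.

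In the senescence list only SAG29 passed, and the autophagy list was mixed. Of 4 measured senescence genes of 21 fixed, the 3 that did not pass were WRKY53 (-0.29 ± 0.2, adjusted p = 0.282), WRKY6 (-0.31 ± 0.2, adjusted p = 0.262) and SAG101 (-0.36 ± 0.2, adjusted p = 0.187). WRKY53, a senescence regulator, averaged 4.96 and 5.79 in untreated wild type and des1, and 4.58 and 5.12 under Na2S. Of 10 measured autophagy genes of 33 fixed, 4 passed below 0 (40%), 1 above (10%) and 5 did not pass, with a median of -0.28. ATG8 proteins are coupled to the growing autophagosome membrane. The arrays gave ATG8B values of 6.7, 6.55 and 6.82 in untreated wild type, 7.73, 8.06 and 8.01 in untreated des1, 6.68, 6.87 and 6.77 in treated wild type, and 6.92, 6.35 and 6.73 in treated des1. ATG8B was high in untreated des1 only, an interaction of -1.35 ± 0.19 (adjusted p = 1.78e-05). ATG8G (-1.24 ± 0.18) and APG8A (-1.01 ± 0.16) had the same form, and ATG8E was above 0 (0.89 ± 0.24). Several ATG8 genes are similar in sequence, so their probe sets may not be independent readings.

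Antioxidant and sulfur genes were small in number. Of 21 fixed glutathione and antioxidant genes 4 were measured, 3 passed below 0 and 1 above. GR1 was measured at 9.08, 9.18 and 8.98 in untreated wild type, 11.24, 11.01 and 11.01 in untreated des1, 10.6, 10.58 and 10.81 in treated wild type, and 10.56, 10.72 and 10.7 in treated des1. GR1, a glutathione reductase gene, was low in untreated wild type, and the other 3 groups lay within 0.68 of each other. Its interaction was -2.01 ± 0.15 (adjusted p = 6.92e-09). The organellar glutathione reductase gene GR had -1.13 ± 0.15 and the glutaredoxin gene GRX480 -1.11 ± 0.25. For CCS the log2 values were 9.54, 9.57 and 9.39 in untreated wild type, 7.56, 7.77 and 7.87 in untreated des1, 10.07, 10.11 and 10.24 in treated wild type, and 10.33, 10.41 and 10.17 in treated des1. CCS, the copper chaperone of superoxide dismutase, was the opposite case, low in untreated des1 and higher in both treated groups than in untreated wild type, an interaction of 1.93 ± 0.15. Of 25 fixed sulfur assimilation genes 4 were measured, 2 passed below 0 and 2 did not. APS4 had values of 8.07, 8.0 and 8.22 in untreated wild type, 8.77, 9.05 and 9.01 in untreated des1, 8.13, 8.14 and 8.3 in treated wild type, and 7.96, 8.08 and 7.94 in treated des1. APS4 encodes an ATP sulfurylase, the first enzyme of sulfate assimilation, and was high in untreated des1 only (-1.04 ± 0.15, adjusted p = 2.03e-05). The plastid cysteine desulfurase gene CPNIFS had -0.56 ± 0.18 (adjusted p = 0.0178), with untreated wild type the lowest and the other 3 groups overlapping. Sulfite reductase SIR (-0.36 ± 0.16, adjusted p = 0.0851) and APS3 (-0.12 ± 0.13, adjusted p = 0.531) did not pass. MGL, a methionine gamma-lyase gene listed with sulfur deficiency markers, had -1.28 ± 0.23, low in untreated wild type (5.21) and 6.47 to 6.57 elsewhere. It was 1 of 2 measured of 9 fixed, and the other did not pass.

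**Figure D4:**
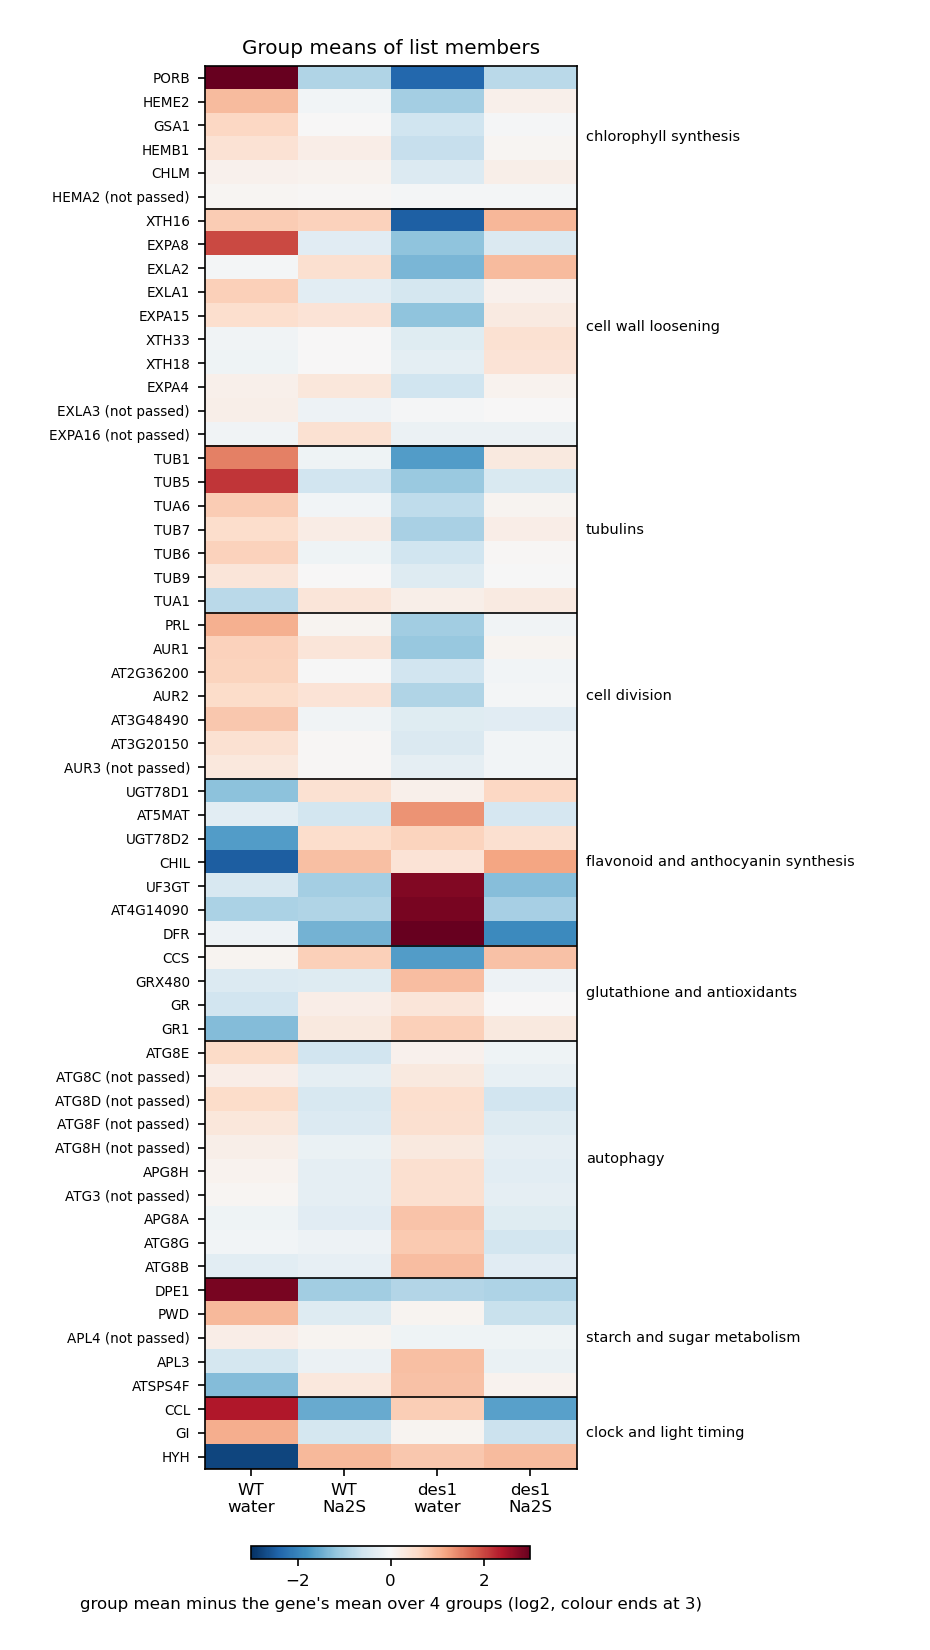
Colours give each group's mean minus the mean of the 4 groups (log2, ending at 3 in either direction) for the measured genes of 9 lists or families, with genes that did not pass the interaction test marked. In the 4 upper groups untreated wild type is mostly red and untreated des1 mostly blue, in flavonoid synthesis untreated des1 is red for DFR, AT4G14090 and UF3GT, and the treated columns of a gene are mostly of like colour.

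Starch, sugar and timing genes moved on both sides. Of 26 fixed starch and sugar genes 5 were measured, 2 passed above 0, 2 below and 1 did not pass. By array, DPE1 read 8.54, 8.68 and 8.25 in untreated wild type, 5.02, 4.63 and 4.68 in untreated des1, 4.41, 4.89 and 4.54 in treated wild type, and 4.69, 4.9 and 4.58 in treated des1. DPE1, a plastid glucanotransferase of starch breakdown, was high in untreated wild type alone, an interaction of 3.82 ± 0.21 (adjusted p = 1.02e-10). The phosphoglucan water dikinase gene PWD had 0.62 ± 0.14. ATSPS4F, a sucrose-phosphate synthase gene, had -2.38 ± 0.13, low in untreated wild type (9.17) and 10.58 to 11.35 elsewhere. APL3, a subunit gene of ADP-glucose pyrophosphorylase, was high in untreated des1 (-1.46 ± 0.16). All 3 measured clock and light genes of 33 fixed passed. HYH read 5.44, 5.22 and 5.65 in untreated wild type, 9.01, 9.11 and 8.86 in untreated des1, 9.31, 9.18 and 8.96 in treated wild type, and 9.27, 8.94 and 9.2 in treated des1. HYH, a bZIP factor related to HY5 in light signalling, was low in untreated wild type only, with the other 9 arrays from 8.86 to 9.31 (-3.57 ± 0.18, adjusted p = 5.62e-11). The values of CCL were 12.15, 12.33 and 12.2 in untreated wild type, 10.58, 10.62 and 10.55 in untreated des1, 8.3, 8.29 and 8.39 in treated wild type, and 8.17, 8.29 and 8.13 in treated des1. CCL had 1.51 ± 0.13, and Na2S lowered it in both genotypes to within 0.26 across the 6 treated arrays. The clock gene GI had 0.88 ± 0.17 with the same order of groups as CCL. The energy starvation list had 4 above (36.4%) and 2 below 0 (18.2%) of 11 measured of 23 fixed, and 5 did not pass. Its median was 0.22 and its lowest value -0.74. Above 0 were AT1G62480 (1.66 ± 0.18), ATL8 (1.43 ± 0.22), AT2G36220 (1.03 ± 0.22) and BZIP53 (0.79 ± 0.15).

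Stress, iron and surface genes were measured in small numbers. Of 34 fixed abscisic acid, cold and drought genes 6 were measured, 3 passed below 0, 1 above and 2 did not pass. On the log2 scale LEA4-5 stood at 4.77, 5.34 and 4.91 in untreated wild type, 8.38, 8.01 and 7.36 in untreated des1, 4.24, 4.65 and 5.01 in treated wild type, and 4.59, 4.41 and 4.78 in treated des1. LEA4-5, a late embryogenesis abundant protein gene of drying tissues, was high in untreated des1 only (-2.95 ± 0.31, adjusted p = 5.63e-07). COR47, a dehydrin gene, had -0.67 ± 0.17. COR15B, a cold-induced chloroplast protein gene, went the other way (2.03 ± 0.18), high in untreated wild type (7.26 against 4.81 to 5.07). By symbol, late embryogenesis abundant genes counted 2 above and 3 below 0 of 7, with AT2G46140 at 1.39 ± 0.15, LEA18 at -0.67 ± 0.17 and AT1G54410 at 0.46 ± 0.15. LEA18 lay near or in the dim range on all arrays, at 3.14 to 4.02. Both measured iron deficiency regulators of 20 fixed passed below 0. PYE (-1.01 ± 0.17) and BHLH101 (-0.83 ± 0.17) were highest in untreated des1, and BHLH101 fell in both genotypes with Na2S, by 2.08 in wild type and by 2.91 in des1. Both measured genes of the cuticle list of 29 fixed passed above 0. The arrays gave AT5G61590 values of 10.29, 9.95 and 10.43 in untreated wild type, 7.73, 7.92 and 7.61 in untreated des1, 7.61, 7.92 and 8.09 in treated wild type, and 9.48, 9.14 and 9.23 in treated des1. AT5G61590, known as DEWAX, encodes a repressor of wax synthesis, and its genotype difference reversed from -2.47 under water to 1.41 under Na2S without overlap in either. The interaction of AT5G61590 was 3.88 ± 0.21 (adjusted p = 7.34e-11). WSD1, a wax ester synthase gene, had 1.14 ± 0.19. Of 4 measured folding stress genes of 23 fixed, the co-chaperone gene Hop3 (-2.62 ± 0.27) and BZIP60 (-1.09 ± 0.18), a factor of the unfolded protein response, passed below 0. The trichome patterning gene TRY, the only 1 of 9 trichome markers measured, had -2.06 ± 0.17, at 6.37 in untreated wild type and 8.15 to 9.06 elsewhere.

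Defence genes held an example without interaction. PDF1.2 was measured at 8.08, 8.14 and 8.48 in untreated wild type, 10.25, 9.82 and 9.94 in untreated des1, 7.91, 8.24 and 8.24 in treated wild type, and 9.72, 9.66 and 9.73 in treated des1. The jasmonate-responsive defensin gene PDF1.2 was higher in des1 than in wild type under both waterings with no overlap, and its interaction was -0.2 ± 0.19 (adjusted p = 0.474). PDF1.2b, a close copy that its probe set may not tell apart from PDF1.2, had 0.37 ± 0.3 (adjusted p = 0.385). These 2 genes were chosen after their values were seen, and a p that misses the threshold does not show that the 2 differences were equal. For JMT the log2 values were 3.91, 3.99 and 3.98 in untreated wild type, 6.48, 6.85 and 6.86 in untreated des1, 7.1, 7.12 and 7.03 in treated wild type, and 6.67, 6.68 and 6.99 in treated des1. JMT, which makes methyl jasmonate, passed with -3.07 ± 0.17 (adjusted p = 1.05e-10) and lay near the dim range in untreated wild type only. These were the 3 measured of 24 fixed jasmonate and defensin genes. Both measured glucosinolate genes of 27 fixed passed with small values, UGT74B1 (-0.42 ± 0.14) and BCAT4 (-0.39 ± 0.14, adjusted p = 0.0305), and BCAT4 did not pass in 7 of 20 other settings.

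A few of the calls also differed between the genotypes under Na2S. Over all probe sets the des1 minus wild type difference under Na2S ran from -3.55 to 1.89 on the log2 scale. The genes described here were chosen by their interaction, not by that difference. Among the 182 calls with opposite differences the largest after AT4G29020 and AT5G48490 was CHI. CHI had values of 6.78, 6.69 and 6.74 in untreated wild type, 10.43, 10.24 and 10.41 in untreated des1, 7.12, 7.37 and 7.25 in treated wild type, and 5.61, 5.94 and 5.94 in treated des1. CHI had a des1 minus wild type difference of 3.62 under water and -1.42 under Na2S, without overlap either time, an interaction of -5.04 ± 0.16 (adjusted p = 1.26e-13). AT4G23680 had the same form, 3.08 under water and -1.94 under Na2S. The 34 calls whose difference passed under Na2S only were led by AT1G02813, RXF26 and AT1G47980, none with a described product in the annotation used. By array, AT1G02813 read 3.43, 3.28 and 3.07 in untreated wild type, 3.48, 3.35 and 3.32 in untreated des1, 5.2, 4.53 and 5.13 in treated wild type, and 3.2, 3.46 and 3.38 in treated des1. RXF26 read 3.63, 3.55 and 3.77 in untreated wild type, 3.49, 3.81 and 3.71 in untreated des1, 4.62, 5.12 and 5.31 in treated wild type, and 3.3, 3.45 and 3.49 in treated des1. In both, treated wild type alone stood above the dim range. Their interactions were -1.73 ± 0.21 (adjusted p = 3.07e-06) and -1.62 ± 0.21 (adjusted p = 4.51e-06), and that of AT1G47980 was -1.5 ± 0.26 (adjusted p = 0.000121) with treated wild type at 5.65.

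The 53 calls that kept the direction of the genotype difference were led by AT2G33850, LCR69 and ATLP-1. The values of AT2G33850 were 8.69, 8.36 and 8.59 in untreated wild type, 3.67, 4.02 and 3.66 in untreated des1, 7.43, 7.33 and 7.23 in treated wild type, and 5.64, 5.21 and 5.56 in treated des1. AT2G33850, undescribed in the annotation used, was lower in des1 both times without overlap, by -4.76 under water and -1.86 under Na2S, an interaction of 2.9 ± 0.19 (adjusted p = 1.0e-09). On the log2 scale LCR69 stood at 9.89, 9.59 and 9.91 in untreated wild type, 6.14, 5.82 and 5.78 in untreated des1, 9.24, 9.5 and 9.37 in treated wild type, and 8.24, 8.42 and 8.38 in treated des1. LCR69, a defensin-like gene also named PDF2.2, differed by -3.88 and -1.02 in the same way (2.86 ± 0.17). ATLP-1, a thaumatin-like protein gene, differed by -3.69 and -1.03 (2.67 ± 0.15). In these 3 genes Na2S raised des1 by 1.69, 2.43 and 2.22 and the gap to treated wild type stayed between 1.02 and 1.86.

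**Figure D5:**
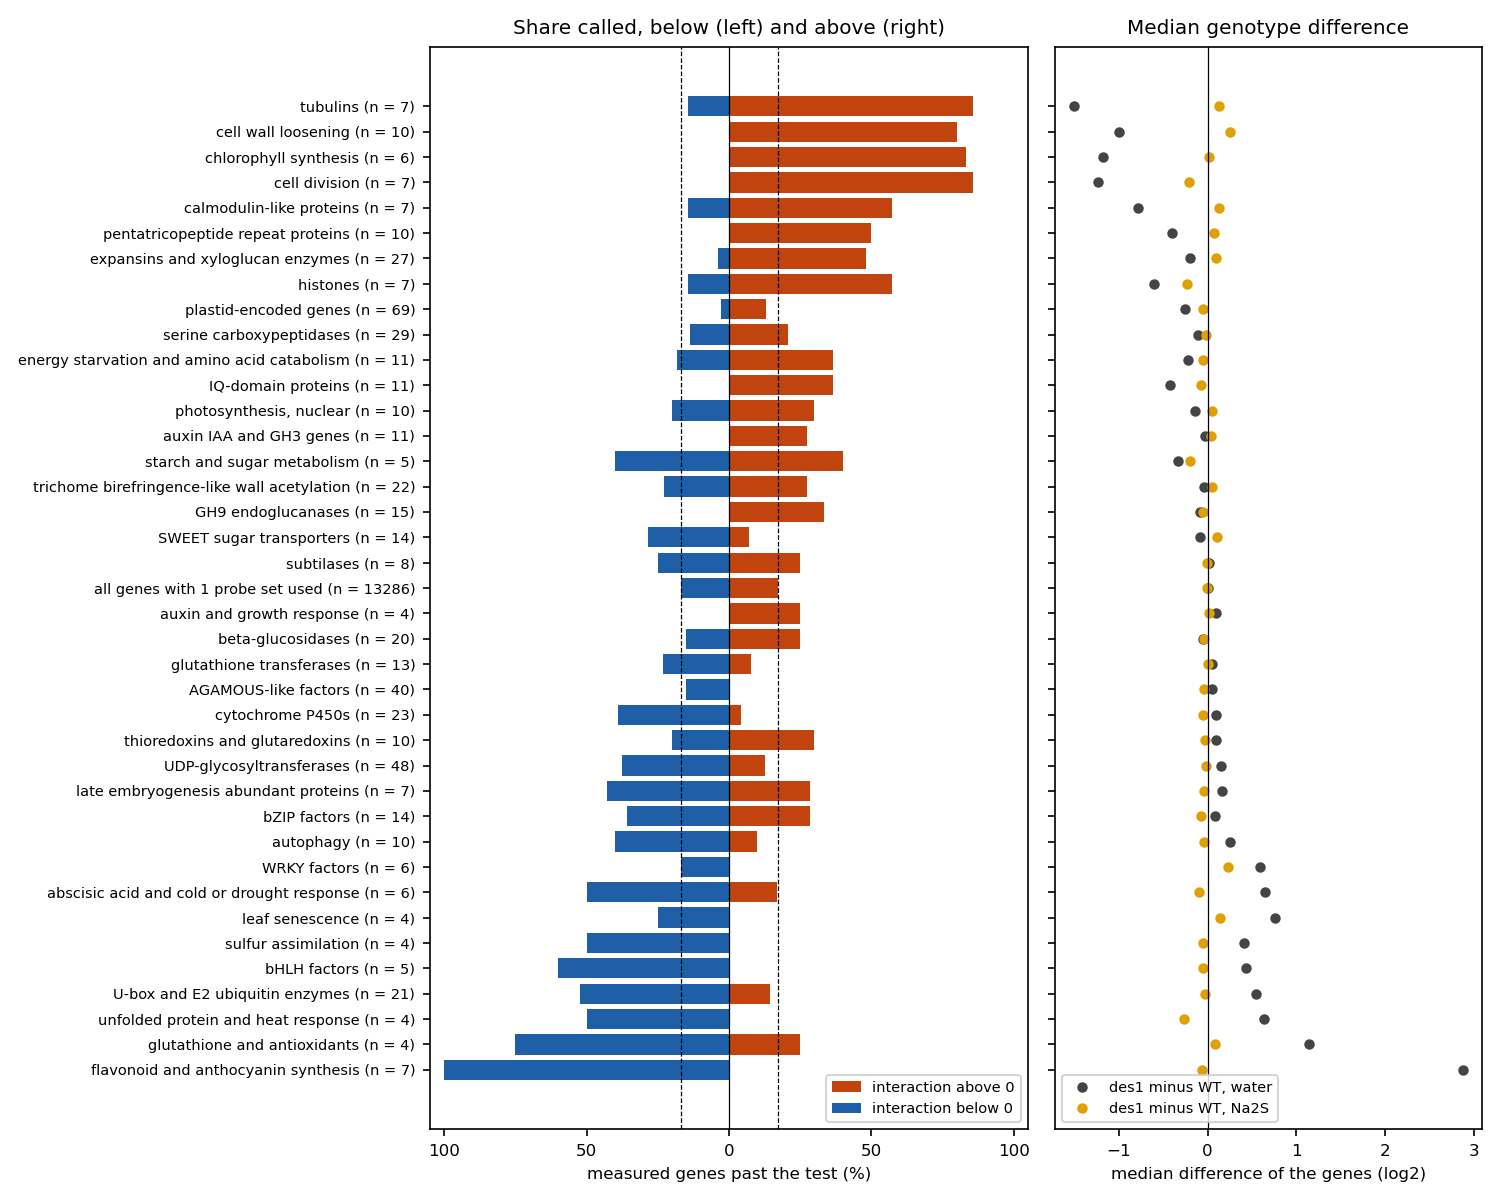
Bars on the left give the share of measured genes of each list or family (n beside the name, at least 4 genes) that passed the interaction test above 0 (orange, right) and below 0 (blue, left), with dashed lines at 17.2% and 16.9%, the shares over all 13286 genes. Points on the right give the median des1 minus wild type difference under water (grey) and under Na2S (yellow), and the yellow points lie within 0.27 of 0 while the grey ones run from -1.50 to 2.87.

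Other families gave values on both sides, read here beside the shares of 17.2% above and 16.9% below 0 over all genes. Calmodulin-like genes counted 4 above (57.1%) and 1 below 0 (14.3%) of 7, with CML38 (2.06 ± 0.18), CML30 (1.49 ± 0.16) and CML23 (1.27 ± 0.25) opposite to CML41. Of 20 beta-glucosidase genes 5 passed above 0 (25%) and 3 below (15%), from BGLU44 to BGLU45 (-1.15 ± 0.19). The arrays gave BGLU44 values of 10.61, 10.55 and 10.6 in untreated wild type, 6.5, 6.51 and 6.61 in untreated des1, 6.86, 6.92 and 6.59 in treated wild type, and 6.86, 6.67 and 6.7 in treated des1. BGLU44 was high in untreated wild type alone, an interaction of 4.0 ± 0.15, and BGLU42 (1.44 ± 0.16) and BGLU16 (1.42 ± 0.2) had the same form. Serine carboxypeptidase-like genes counted 6 above (20.7%) and 4 below 0 (13.8%) of 29, near the shares over all genes. The largest were SCPL45 (1.27 ± 0.13), scpl25 (1.19 ± 0.14), scpl35 (1.17 ± 0.17) and scpl48 (-1.09 ± 0.15). Subtilisin-like proteases counted 2 above (25%) and 2 below 0 (25%) of 8, with SBTI1.1 (2.59 ± 0.18) and SBT1.3 (2.36 ± 0.15) above and SBT3.5 (-1.38 ± 0.16) and SBT3.3 (-1.06 ± 0.2) below. All 5 called pentatricopeptide repeat genes of 10 (50%), a family of organelle RNA processing, were above 0, among them PPR596 (1.28 ± 0.18), PPR336 (1.08 ± 0.21), OTP81 (1.03 ± 0.19) and OTP85 (0.86 ± 0.17). The same held for the 4 called IQ-domain genes of 11 (36.4%), IQD31 (1.26 ± 0.17), IQD30 (1.2 ± 0.17), IQD22 (0.64 ± 0.2) and IQD19 (0.6 ± 0.17), whose products bind calmodulin. Thioredoxins and glutaredoxins counted 3 above (30%) and 2 below 0 (20%) of 10, with TRXF2 (0.56 ± 0.18) and ty2 (0.55 ± 0.15) above and GRXC1 (-1.36 ± 0.16) below. Of the genes in this paragraph, BGLU45 and SBT3.3 were dim outside untreated des1. OTP85 lay near the dim range, at group means of 3.76 to 4.44.

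Of the transcription factor families counted here, bZIP, bHLH, WRKY and AGAMOUS-like, only bZIP genes were called on both sides. Of 14 bZIP genes 4 passed above 0 (28.6%) and 5 below (35.7%), with BZIP34 (2.43 ± 0.23) beside BZIP61 above and bZIP44 (-1.35 ± 0.19) below. BZIP34 averaged 6.32 and 4.08 in untreated wild type and des1, and 5.24 and 5.44 after Na2S, the same order as BZIP61. Of 40 AGAMOUS-like MADS genes 6 passed, all below 0, a share of 15% against 16.9% for all genes, led by AGL42 (-2.1 ± 0.18), AGL65 (-1.21 ± 0.16), AGL18 (-0.75 ± 0.16) and AGL24 (-0.65 ± 0.18). Of 5 bHLH genes bHLH34 (-1.45 ± 0.16), BHLH101 and bHLH104 (-0.51 ± 0.16) passed below 0, and of 6 WRKY genes only WRKY47 (-1.74 ± 0.22) did. TBL37 (-2.81 ± 0.15) and TBL38 (-1.29 ± 0.24) completed the named wall acetylation genes. Of 5814 measured pairs of genes lying next to each other on a chromosome, 854 had both genes called. Of these, 461 (54%) had the same sign and 393 (46%) opposite signs. Calls over all genes were themselves split nearly evenly, 17.2% above and 16.9% below 0, and the pairs were not tested. The root and the flower and pollen markers, 2 measured genes each, and the single measured ethylene and salicylic acid genes held no call. The lists for salt and ion homeostasis, nitrogen and phosphate, cytosolic ribosomal proteins, phloem and xylem, and DES1 with its relatives had no member with a probe set used here and were not analysed.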

How the data were processed

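Leaf RNA was labelled by the standard 3′ array method and hybridised to 12 arrays, grouped by their titles. The authors deposited log2 values per probe set, made by RMA in the affy package per the submitters' processing notes, with no versions stated. RMA corrects background, equalises the distributions of arrays and summarises probes, so a shift shared by most transcripts would be removed, and whether all 12 arrays were processed together is not stated. Of 22810 probe sets deposited, 64 controls were left out and 22746 tested.

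From these values 1 mean per group was fitted with limma 3.58.1 in R 4.3.3 (lmFit, contrasts.fit, eBayes; 8 residual degrees of freedom), with Benjamini-Hochberg adjustment over all probe sets and a threshold of 0.05. Errors are limma standard errors on the log2 scale. The fit was tested on simulated data, which gave all groups the same mean and shifted treated des1 only, unlike these data. It recovered 31.3% of interactions of 1.5 fold, 77.6% of 2 fold and 100% of 4 fold, with 5 false calls. The platform annotation listed 1 gene for 13513 probe sets, several for 503 and none for 8730, which are unnamed here, not without a gene. Of the named ones 13436 matched a locus of the RefSeq TAIR10.1 table, used for names and gene order only. For lists and families the probe set with the highest mean stood for a gene, giving 13286 genes. Of 684 entries in 32 lists 117 were used, 20 others were left out because their symbol did not match the annotation, and the rest had no listed probe set, so a list's count covers few of its genes. There were also 24 families found by symbol or product name.

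Named genes were the 12 largest interactions in each direction whose array differences did not overlap, 3 each of the calls with opposite, Na2S-only and same-direction genotype differences, and up to 4 called members of each list or family. PDF1.2, PDF1.2b, SAG101, WRKY53, WRKY6, AUR3, SIR, APS3, SPCH, RCA, CHLM and TUA1 were added after their values were seen. The comparison, members and lists were chosen with earlier results of these data known, and family patterns were tightened after their matches were read, so list counts are descriptions without a test. Alternatives were repeated quantile normalization, centring, a trended robust variance, array weights, removal of dim probe sets (the lower 40% by mean), a replicate block, probe sets of 1 gene only, unlogged values, a minimum size and leaving out each array. Promoter motifs were not analysed here. Precision rests on the 3 arrays per group, since hybridisation gives no read depth.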

Additional observations from a re-analysis of the deposited data

Results flagged for a closer look

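The interaction test itself asks whether the Na2S effect differed between the genotypes, and each result here passed it. It did so for 8573 probe sets, 4232 above 0 and 4341 below. Every other gene that passed in the report meets the same condition, and the values here are those of the 24 largest genes on the log2 scale. Above 0 they were PORB (6.48), AT4G29020 (5.88), AT1G56300 (5.85), AT5G48490 (5.82), AT5G45670 (5.03), BZIP61 (5.0), AT5G62360 (4.74), AT4G28780 (4.56), AT4G30660 (4.53), WLIM2a (4.41), AT2G39920 (4.33) and AT3G47160 (4.16). Below 0 they were AT2G27420 (-6.33), SAG29 (-6.02), AT5G39520 (-5.17), CHI (-5.04), AT4G23680 (-5.03), CML41 (-4.96), AT2G25625 (-4.88), AT3G28270 (-4.53), AT1G68620 (-4.45), AT1G64360 (-4.38), AT5G42760 (-4.31) and HIS1-3 (-4.2). In all 24 genes the 9 array differences under Na2S did not overlap the 9 under water, which the rule that chose them required. Each kept its sign and passed in every alternative that gave it a value.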

How the results depend on the processing

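The interaction was called for 8573 probe sets, and 7788 to 8457 of these calls were kept in the same direction in each alternative that fitted all probe sets, with 0 in the opposite direction except 1 on unlogged values. Without dim probe sets all 7414 calls still in the fit were kept, and with probe sets of 1 gene only 4472 of 4577. With a minimum size of 1 on the log2 scale 3426 calls passed, 1683 above 0 and 1743 below. With probe sets of 1 gene only, which fits fewer probe sets, 4472 passed, 2257 above 0 and 2215 below, and the genotype difference passed under water only in 4155, under Na2S only in 16, under both in the same direction in 29 and in opposite directions in 65. Array weights gave 10404 calls, with 104 under Na2S only, 128 in the same direction and 507 in opposite directions, and unlogged values gave 29 in the same direction; the cause was not tested. Leaving out each array in turn gave 7937 to 8571 calls, 3898 to 4239 above 0 and 4003 to 4345 below. It gave 7316 to 7909 with a genotype difference under water only and 23 to 43 under Na2S only, the lowest without treated des1 replicate 2. The same direction under both was found in 33 to 59 and opposite directions in 97 to 206, both lowest without treated wild type replicate 2. The fit with replicate number as a block gave 8401 calls. After group means were subtracted, the 18 pairs of arrays with the same number had correlations of -0.215 to 0.162, 1 of them over 0.1. They averaged -0.034, against 0.017 for pairs with other numbers, and 1 of 12 arrays correlated best with its own number. Such deviations sum to 0 over the 3 arrays of a group, so whether a number marks a shared day or batch cannot be decided from them. Of the genes named, AGL24, AT1G54410, BCAT4, bHLH104, CPNIFS, FMA, IQD19, IQD22, PRK, SBPASE, TRXF2 and UGT74B1 missed the threshold in 1 to 7 of 20 settings, BCAT4 most often, and no named gene changed sign. AUR3, RCA, SIR, SPCH, WRKY53 and WRKY6, which did not pass, passed in 1 to 3. Signal near background limits the dim groups, whose differences are compressed.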
